A study of Danio rerio with 4 samples.

Results

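The genes described here encode the degradative enzymes of the lysosome, the proteins of its limiting membrane and a transcription factor that controls many of them. They were chosen by symbol from a list of 48 names, among them lgmn, whose transcript rose steeply in these embryos. The names matched 50 Ensembl gene identifiers of the 32057 in the deposited table, and 45 of the 50 reached 1 TPM in at least 2 libraries and were tested. TPM is transcript abundance corrected for transcript length and scaled to the same total in every library, so levels of different genes can be compared but sequencing depth is unknown.

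The data were 4 poly-A RNA libraries of whole zebrafish embryos, 2 of quadruple mutants (mdm2-/-; puma-/-; noxa-/-; p21-/-) and 2 of their siblings. The siblings were also puma-/-, noxa-/- and p21-/-, but mdm2+/- or mdm2+/+. Mdm2 is the ubiquitin ligase that holds p53 in check, puma and noxa are p53 targets that promote cell death, and p21 is the p53 target that arrests the cell cycle. The sibling controls are therefore not wild type, and every comparison is of mdm2 loss on a background without those 3 p53 targets. Sample titles give 18 hours post-fertilization and the tissue label gives 30, and the titles also describe the mutants as abnormal, so mdm2 genotype and abnormal appearance cannot be told apart. The labels do not state whether libraries came from different clutches, so the spread behind each p-value is that between these 4 samples and may be technical.

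Lysosomes are acidic organelles in which proteins, glycans, lipids and nucleic acids are broken down. Most of their enzymes are made as inactive precursors, tagged in the Golgi with mannose 6-phosphate and carried to the organelle by receptors, where the vacuolar ATPase supplies the acid they need. In mammalian cells the transcription factor TFEB and its relatives switch on many of these genes together when nutrients fall or lysosomes are damaged. In the fish embryo, lysosomal proteases are also known from the yolk syncytial layer, which digests yolk, from the hatching gland and from macrophages.

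Lysosomal transcripts moved in both directions, and the rise of lgmn stood far above the others in size. Of the 45 genes tested, 17 rose in the quadruple mutants, 14 fell and 14 did not pass (limma across all genes, Benjamini-Hochberg adjusted p under 0.05). Those called were 68.9% of the members, against 65.6% of all 16172 genes tested. The share that rose was 37.8%, with 28.0% over all genes, and the share that fell was 31.1%, with 37.7% over all genes. Without lgmn, whose rise was known when it was listed, 16 of 44 members rose (36.4%) and 14 fell (31.8%). Few lysosomal genes changed by 2-fold or more on the log2(TPM + 1) scale. The risers of that size, lgmn, grnb and ppt1, were 3 of 45 or 6.67% (9.54% over all genes), and 1 gene or 2.22% fell that far, scarb2a (11.5% over all genes). Without lgmn the risers of that size were 2 of 44 or 4.55%. Under median ratio scaling 5 members or 11.1% were at least 2-fold higher, with 11.3% over all genes. With a pseudocount of 0.1, 2 members or 4.44% were at least 2-fold lower (16.2% over all genes). With a pseudocount of 5, 0 members were at least 2-fold lower (4.67% over all genes). In that fit 3 members or 6.67% were at least 2-fold higher, with 5.11% over all genes, so the order of these shares depended on the pseudocount. Values of the genotypes did not overlap in 41 of the 45 genes, and in 83.3% of all genes.

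The median log2 change was 0.11 over the lysosomal genes, 0.10 without lgmn and -0.10 over all genes tested. Median ratio scaling moved the median of all genes by over 0.1, to 0.02, and the lysosomal median to 0.24, with 21 members then called higher and 10 lower. With sibling control replicate 1 left out 13 were higher and 8 lower, and with sibling control replicate 2 left out 12 were higher and 10 lower. In those fits the number of all genes called higher and the number of all genes called lower fell as well. The members that lost their call when 1 library was left out had log2 changes of at most 0.55 in size, and were ctsb, ids, tpp1, laptm4a, cln3, ctsz, lamp2, gusb, naga, lipa and mcoln1 (ENSDARG00000002285).

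**Figure D1:**
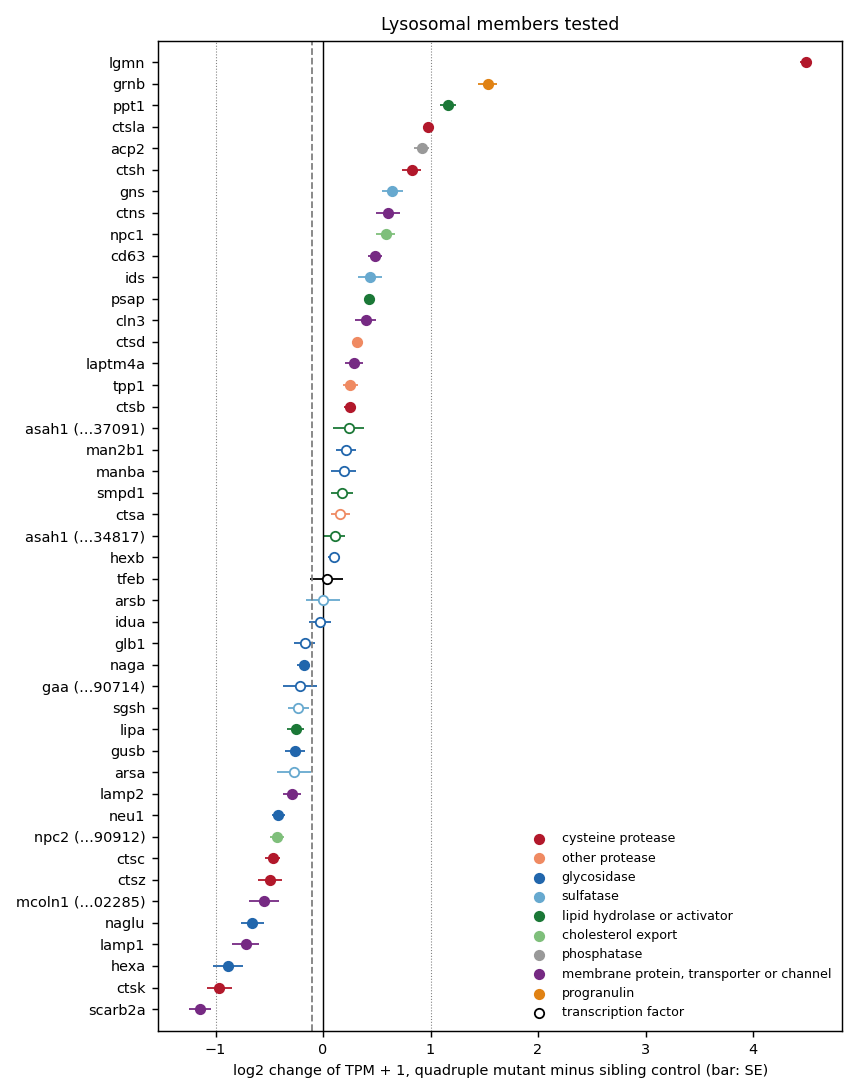
Log2 change of TPM + 1 (quadruple mutant minus sibling control, horizontal axis) of the 45 lysosomal genes tested, coloured by role, with bars for 1 SE. Filled points passed the test and open points did not; the dashed line is the median of all genes (-0.10) and the dotted lines mark a 2-fold change. lgmn lies at 4.49, and the other members lie between -1.14 and 1.53.

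Legumain, encoded by lgmn (ENSDARG00000039150), is the cysteine protease that cuts after asparagine and that trims the precursors of several cathepsins in mammals. Its transcript reached 1349 and 1299 TPM in mutants, with 57.0 and 58.9 TPM in controls. The genotypes were far apart and the libraries within each were close. The ratio of the means was 22.9 and the log2 change 4.49 (SE 0.051, limma adjusted p = 7.46e-07), the 37th largest rise of all 16172 genes tested. The next member, grnb, ranked 810th. Since lgmn was listed with its rise known, the size and rank of that rise describe this gene and do not test a lysosomal response. Among the 50 lysosomal identifiers lgmn went from the 13th highest level in the controls to the 3rd highest in the mutants. Its log2 change lay between 4.40 and 4.63 under every alternative tried.

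Among the genes that flank lgmn, si:dkey-157l19.2, zgc:153911 and ttc9 rose, and pcnx1 and med6 did not pass. Over all genes tested 28.0% rose. The outermost genes looked at, si:ch211-67f13.7 and map3k9, were below 1 TPM in every library and were not tested. A cause shared by neighbours was not tested. In the gene order of the RefSeq assembly GRCz12tu, which is not the build of the deposited table and was used for order only, the adjacent gene on one side, si:dkey-157l19.2, had 18.1 and 15.0 TPM in mutants and 8.52 and 5.10 TPM in controls (log2 change 1.201, limma adjusted p = 0.0039). The third gene on that side, zgc:153911, had 45.5 and 46.1 TPM in mutants and 0.49 and 0.46 TPM in controls (4.99, limma adjusted p = 2.22e-06); with both controls under 1 TPM it could be tested only because the mutants were high. On the other side pcnx1 (0.17) and med6 (-0.14) did not pass, and ttc9 rose by 0.87. These neighbours were chosen by position, and a gene that did not match a symbol in the table lies between zgc:153911 and si:dkey-157l19.2.

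The cysteine cathepsins split into risers and fallers. Cathepsin L, a broad endopeptidase, is encoded by ctsla, with 1797 and 1763 TPM in mutants and 897 and 916 TPM in controls. It was the most abundant lysosomal transcript in the mutants, and its log2 change was 0.97 (SE 0.043, limma adjusted p = 2.12e-05). Cathepsin H, mainly an aminopeptidase, rose at the transcript level (ctsh) from 183 and 188 to 302 and 358 TPM (0.82, SE 0.085), with the mutant libraries further apart than the controls. The endopeptidase and carboxypeptidase gene ctsb (listed as ctsba) rose by 0.25 (SE 0.053). Against these, ctsk, the collagen-cleaving cathepsin of osteoclasts in mammals, fell from 10.29 and 10.23 to 5.22 and 4.35 TPM (-0.96, SE 0.115, limma adjusted p = 0.000712).

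The exopeptidase genes ctsc and ctsz fell as well. The dipeptidyl peptidase gene ctsc was abundant, at 382 and 395 TPM in the controls and 262 and 300 TPM in the mutants (-0.47, SE 0.073), while the carboxypeptidase gene ctsz was at 14.8 and 13.3 TPM against 8.97 and 10.5 TPM (-0.49, SE 0.112). All 7 cysteine protease genes passed the test, as did 65.6% of all genes. The 4 that rose were 57.1% and the 3 that fell 42.9%, where all genes gave 28.0% and 37.7%. The 4 include lgmn, which was listed with its rise known, beside ctsla, ctsh and ctsb. Of the proteases with another catalytic mechanism, the aspartic protease gene ctsd rose by 0.31 (SE 0.046) from 299 and 295 to 368 and 370 TPM, and tpp1, a tripeptidyl peptidase, by 0.25 (SE 0.070). The protective protein gene ctsa, whose product is a carboxypeptidase that shields neu1 and glb1 proteins, stood at 65.2 and 76.3 TPM against 62.2 and 63.8 TPM and did not pass (0.16, limma adjusted p = 0.151).

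**Figure D2:**
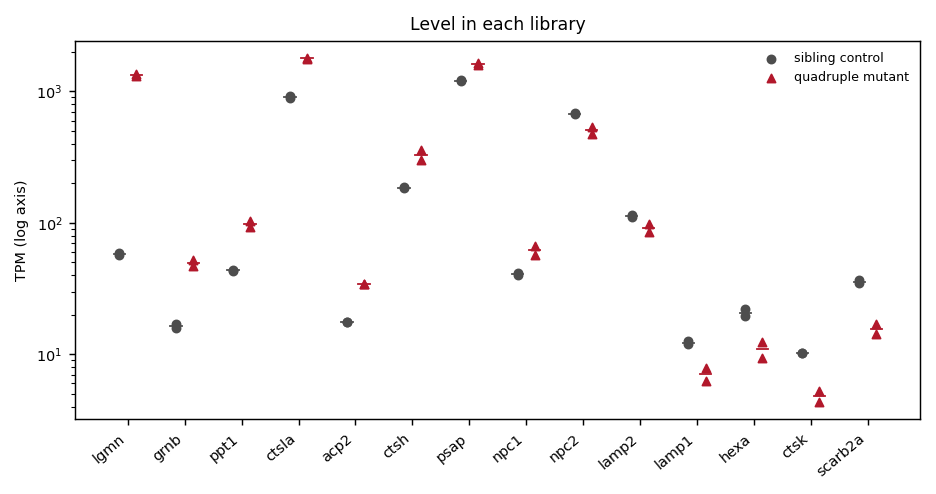
TPM (log axis) of 14 lysosomal genes in each library, with circles for sibling controls, triangles for quadruple mutants and a short line for the mean of each pair. The mutant values of lgmn, at 1349 and 1299 TPM, are above those of the controls by more than the gap between any other pair of groups shown.

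Glycosidases strip sugars from glycans. Of 11 glycosidase genes tested among the members, 0 rose by limma (0 also at an unadjusted p under 0.05), 5 fell and 6 did not pass. The 5 fallers were 45.5% of these genes, where 37.7% of all genes fell and 65.6% were called in either direction. The alpha subunit gene of beta-hexosaminidase, hexa, fell from 19.6 and 21.9 to 9.39 and 12.4 TPM (-0.88, SE 0.140, limma adjusted p = 0.00227). The beta subunit gene hexb, at 119 and 124 TPM against 112 and 114 TPM, did not pass (0.10, SE 0.055); under median ratio scaling it was called higher. The heparan sulfate enzyme gene naglu fell by 0.66 (SE 0.108) from 5.59 and 5.84 to 3.22 and 3.29 TPM, and the sialidase gene neu1 by 0.41 (SE 0.062) from 70.7 and 72.8 to 52.3 and 54.9 TPM. Smaller falls, of 0.26 for the beta-glucuronidase gene gusb and 0.18 for naga, an alpha-N-acetylgalactosaminidase, were past the test and lost under median ratio scaling.

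The other glycosidase genes did not pass in the fit to the deposited scale. They were the beta-galactosidase gene glb1 (-0.17), the glycogen-degrading gaa (ENSDARG00000090714; -0.22), the iduronidase gene idua (-0.03) and the mannosidase genes manba (0.19) and man2b1 (0.21). Under median ratio scaling man2b1, like hexb, was called higher. Among 5 sulfatase genes, gns and ids, both of which remove sulfate from glycosaminoglycans, rose, where 28.0% of all genes rose. The gns transcript went from 5.18 and 5.34 to 8.82 and 8.73 TPM (0.64, SE 0.098), and ids from 5.04 and 4.79 to 6.55 and 7.47 TPM (0.44, SE 0.113). The changes of sgsh (-0.23), arsa (-0.27) and arsb (0.00) did not pass. Both arsa and arsb varied widely between libraries of 1 genotype, arsa with 7.17 and 5.17 TPM in the controls and arsb with 7.91 and 5.89 TPM in the mutants.

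Genes for lipid breakdown were led by ppt1, which encodes the palmitoyl-protein thioesterase that removes fatty acids from proteins. It was at 93.2 and 104 TPM in the mutants and 42.8 and 44.0 TPM in the controls (log2 change 1.16, SE 0.073, limma adjusted p = 6.71e-05). Prosaposin, the precursor of the saposins that present sphingolipids to their hydrolases, was the most abundant member in the controls. Its gene psap rose from 1220 and 1190 to 1653 and 1600 TPM (0.43, SE 0.044, limma adjusted p = 0.000386). The acid lipase gene lipa fell by 0.25 (SE 0.078), a call lost under median ratio scaling. The acid sphingomyelinase gene smpd1 (0.17) and both acid ceramidase genes (asah1, 0.11 for ENSDARG00000034817 and 0.24 for ENSDARG00000037091) did not pass, although smpd1 was called higher under median ratio scaling.

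The partner genes of cholesterol export went opposite ways. The membrane protein gene npc1 rose from 41.4 and 40.2 to 66.2 and 57.2 TPM (0.58, SE 0.086, limma adjusted p = 0.00166). The soluble carrier gene npc2 (ENSDARG00000090912) fell from 677 and 679 to 474 and 536 TPM (-0.43, SE 0.068, limma adjusted p = 0.00221). Both directions held under every alternative tried. The acid phosphatase gene acp2 rose from 17.7 and 17.5 to 34.0 and 34.2 TPM (0.92, SE 0.070, limma adjusted p = 0.000131), with the libraries of each genotype nearly equal.

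Of the 8 membrane genes tested, 4 rose and 4 fell. Over all genes tested 28.0% rose and 37.7% fell, so 65.6% were called in either direction. The structural glycoproteins that coat the inner face of the membrane were among the fallers. The transcript of lamp1 (ENSDARG00000100181) went from 11.9 and 12.7 to 7.87 and 6.29 TPM (-0.72, SE 0.125, limma adjusted p = 0.00315). That of lamp2 went from 114 and 111 to 85.5 and 98.6 TPM (-0.29, SE 0.080, limma adjusted p = 0.0201). The fall of lamp2 was -0.19 without quadruple mutant replicate 1, and it was not past the test under median ratio scaling (adjusted p = 0.104). The lamp1b copy, which was on no list and was looked at after its values were seen, had 12.6 and 13.8 TPM in controls and 21.1 and 26.2 TPM in mutants, and rose (0.79, SE 0.121, limma adjusted p = 0.00192).

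The largest fall among the lysosomal genes was that of scarb2a. In mammals its product, LIMP-2, carries beta-glucocerebrosidase to the lysosome. It was at 36.7 and 34.7 TPM in the controls and 14.4 and 16.9 TPM in the mutants (-1.14, SE 0.099, limma adjusted p = 0.000201). The related gene scarb2c rose from 8.73 and 12.2 to 34.6 and 27.3 TPM (1.49, SE 0.177, limma adjusted p = 0.000702). The calcium channel gene mcoln1 (ENSDARG00000002285) fell by 0.55 (SE 0.137) from 4.53 and 4.12 to 2.33 and 2.97 TPM. The risers were the cystine exporter gene ctns (0.60, SE 0.114), the tetraspanin gene cd63 (0.49, SE 0.063), the Batten disease gene cln3 (0.40, SE 0.097) and laptm4a (0.29, SE 0.083).

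Progranulin is a secreted and lysosomal growth factor that is cut into granulins. Its gene grnb showed the largest rise after lgmn, from 15.7 and 17.1 to 51.8 and 46.9 TPM (1.53, SE 0.086, limma adjusted p = 4.61e-05). The other copy, grna, was at 0.80 and 1.41 TPM in the mutants and 0.39 and 0.36 TPM in the controls and was too low to be tested. The transcript of tfeb was at 2.99 and 3.05 TPM in the mutants and 2.47 and 3.43 TPM in the controls. The mutant values lay between those of the controls, and the log2 change was 0.04 (SE 0.153, limma adjusted p = 0.849). A transcript level does not report on the location or activity of the factor. The remaining identifiers that were too low to be tested were gla, the other copies of gaa (ENSDARG00000116493) and mcoln1 (ENSDARG00000058848), each below 1.1 TPM throughout, and the other npc2 (ENSDARG00000096979), listed at 0 in 3 libraries and at 0.16 TPM in a control.

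Summed over the 50 identifiers, the members made up 0.803% and 0.816% of all TPM in the mutants and 0.535% and 0.537% in the controls. Sums of the lysosomal lists outside the members went both ways and are given with those lists. The sums were 8030 and 8164 TPM against 5346 and 5370 TPM, a difference of 2739 TPM between the means. The rise of lgmn came to 46.2% of that difference, that of ctsla to 31.9% and that of psap to 15.4%. Without lgmn the sums were 6681 and 6864 TPM in the mutants and 5289 and 5311 TPM in the controls, a ratio of 1.28. Without lgmn, ctsla and psap they were 3232 and 3501 TPM in the mutants and 3172 and 3205 TPM in the controls, a ratio of 1.06. These genes had the largest rises in TPM of the members, so taking them out lowers the ratio by construction. The largest falls, of npc2 (-173.1 TPM) and ctsc (-107.5 TPM), stayed in. Of the 11 members with a mean of at least 100 TPM over all libraries, 7 rose and 3 fell, and of the 34 below that level 10 rose and 11 fell. This split used values of both genotypes. The control mean of lgmn was 57.95 TPM, so it was in the higher group only through the mutants. The mutant mean of lamp2 was 92.01 TPM, so it was there only through the controls. Over all genes tested 28.0% rose and 37.7% fell, and shares by level were not computed for them.

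**Figure D3:**
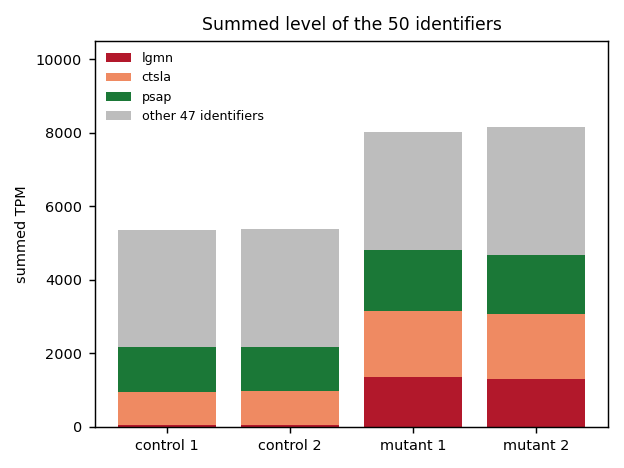
Summed TPM of the 50 lysosomal identifiers in each library, stacked by gene, with the other 47 identifiers in grey. The genes shown apart, lgmn, ctsla and psap, are those with the largest rises in TPM. The grey part is 3172 and 3205 TPM in the controls and 3232 and 3501 TPM in the mutants, whereas lgmn, ctsla and psap together are 2174 and 2165 TPM in the controls and 4799 and 4663 TPM in the mutants.

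Libraries of the same genotype differed less than the genotypes did for most of these genes. The median absolute log2 difference between the mutant libraries was 0.109 over the 45 members (0.13 over all genes), and between the controls it was 0.0469 (0.0873 over all genes). In 31 of the 45 members the second mutant library had the higher value, and in 24 of the 45 the second control library did. The same counts were not made over all genes. The widest gap between mutants was that of arsb, and the widest between controls that of arsa.

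Other lysosomal hydrolases, from a list separate from the members, were as mixed. Of 29 tested, 10 rose, 11 fell and 8 did not pass (median log2 change -0.18, against -0.10 over all genes). The shares were 34.5% higher and 37.9% lower, where all genes gave 28.0% and 37.7%. The sums of the 38 matched identifiers fell from 1861 and 1936 TPM in the controls to 1235 and 1377 TPM in the mutants. The largest falls, of ctss2.1 and acp5 (ENSDARG00000019763), were together larger than that fall, so the other identifiers did not fall in sum. Leaving out the largest falls raises the rest by construction. The cysteine protease gene ctsf rose from 21.4 and 22.3 to 48.3 and 50.4 TPM (1.14, SE 0.070), and the fucosidase gene fuca2 from 64.5 and 64.4 to 130 and 126 TPM (0.98, SE 0.055). The phospholipase gene pla2g15 rose by 0.70. The cathepsin S gene ctss2.1 fell from 592 and 628 to 148 and 193 TPM (-1.85, SE 0.124, limma adjusted p = 8.37e-05). Chosen after their values were seen, acp5 (ENSDARG00000019763), the tartrate-resistant phosphatase gene, fell from 449 and 453 to 155 and 215 TPM (-1.30, SE 0.144), and gnsb, a relative of the riser gns, fell from 51.1 and 54.5 to 33.5 and 32.2 TPM (-0.67). With either sibling control left out, fewer of these genes were called in each direction, as was so over all genes. Fallers outnumbered risers without sibling control replicate 1, and risers outnumbered fallers without sibling control replicate 2.

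Other membrane proteins of the lysosome rose more often than they fell. The sums of the 27 matched identifiers were 434.3 and 447.0 TPM in the mutants and 297.5 and 298.7 TPM in the controls. Of 21 tested, 10 rose, 2 fell and 9 did not pass, which is 47.6% higher where all genes gave 28.0%, and the median log2 change was 0.20. The sialomucin gene cd164 rose from 38.1 and 38.7 to 91.5 and 96.5 TPM (1.27, SE 0.062, limma adjusted p = 2.96e-05). The sialic acid exporter gene slc17a5 rose by 0.86 (SE 0.097), and tmem9 by 1.05 (SE 0.097). The fallers were tmem192 (-0.55) and laptm4b (-0.38). Only 1 of these falls was past the test under median ratio scaling, under quantile normalization, without quadruple mutant replicate 1 or without sibling control replicate 1, and 0 were without sibling control replicate 2.

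Among 25 vacuolar ATPase genes, 8 rose, 6 fell and 11 did not pass (median 0.01). The shares were 32.0% higher and 24.0% lower, where all genes gave 28.0% and 37.7%. The sums of the 26 matched identifiers were 1431 and 1490 TPM in the mutants and 1289 and 1283 TPM in the controls. Under median ratio scaling the split was 11 higher and 4 lower, with 5471 and 5135 of all 16154 genes. With sibling control replicate 1 left out 5 rose and 1 fell, and with sibling control replicate 2 left out 4 rose and 1 fell. The largest rise was that of 1 copy of atp6v1c1 (ENSDARG00000023967), the stalk subunit gene, from 37.0 and 38.8 to 160 and 158 TPM (2.04, SE 0.059, limma adjusted p = 5.53e-06). Its other copy (ENSDARG00000035880) went from 17.3 and 17.6 to 12.4 and 14.6 TPM (-0.35, limma adjusted p = 0.0232), a call lost when either control was left out.

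Copies of atp6v1a, atp6v0a2, atp6v0a1 and atp6v0c, named after their values were seen, also had log2 changes of opposite sign. So did those of atp6v1b2 (0.637 and -0.029) and atp6ap1 (0.311 and -0.154), of which only the first value passed. The copies atp6v1e1a (-0.224) and atp6v1e1b (-0.165) had the same sign, and neither passed. For tcirg1, ENSDARG00000016835 was too low to be tested and ENSDARG00000105142 (-0.167) did not pass. A catalytic subunit gene, atp6v1a (ENSDARG00000076318), fell from 76.3 and 76.7 to 19.9 and 34.2 TPM (-1.515, SE 0.227), while the other (ENSDARG00000034534) had 44.7 and 45.0 TPM in mutants and 38.4 and 42.2 TPM in controls, which did not pass (0.15). The atp6v0a2 copies went from 2.87 and 2.43 to 0.81 and 0.72 TPM (ENSDARG00000035538; -1.05) and from 10.4 and 9.67 to 12.5 and 13.5 TPM (ENSDARG00000035565; 0.34). The atp6v0a1 copies went from 1.26 and 1.09 to 0.46 and 0.37 TPM (ENSDARG00000015174; -0.62) and from 9.15 and 8.98 to 13.7 and 12.6 TPM (ENSDARG00000020847; 0.49). For atp6v0c the log2 changes were -0.62 (ENSDARG00000036577; -0.36 without quadruple mutant replicate 1) and 0.27 (ENSDARG00000057853). The falling copies of atp6v0a2 and atp6v0a1 were tested only because the controls were above 1 TPM, and could not be tested with either control left out. The calls of the higher atp6v0a2 copy and of the lower atp6v0c copy were lost when either control was left out, and that of the higher atp6v0a2 copy also without quadruple mutant replicate 2 (adjusted p = 0.0562, within a range of 0.00459 to 0.134 over the alternatives). Differences between copies were not tested, and reads shared between copies could have been divided in ways the table does not show.

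Genes that sort and activate lysosomal enzymes went both ways. Of 14 tested, 3 rose, 7 fell and 4 did not pass (median -0.26). The shares were 21.4% higher and 50% lower, where all genes gave 28.0% and 37.7%. Under median ratio scaling 5 rose and 5 fell, with 5471 and 5135 of all 16154 genes. Both genes of the phosphotransferase that makes the mannose 6-phosphate tag rose, gnptab from 22.8 and 21.7 to 47.9 and 44.0 TPM (1.01, SE 0.077) and gnptg by 0.35 (SE 0.073), a call lost when either control was left out. The uncovering enzyme gene nagpa, which completes the tag, fell from 18.0 and 17.2 to 8.82 and 9.92 TPM (-0.85, SE 0.096), and the receptor gene igf2r fell by 0.49, likewise not past the test with either control left out. Named after their values were seen, sumf1, the activator of all sulfatases, and its relative sumf2 fell by 0.50 and 0.43; without sibling control replicate 2 neither passed, and sumf2 did not pass without sibling control replicate 1 either (adjusted p = 0.0773). With sibling control replicate 1 left out 1 rose and 3 fell, and with sibling control replicate 2 left out 2 rose and 1 fell.

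The relatives of TFEB, with the Ragulator and Rag proteins that tether mTORC1 to the lysosome, showed 4 risers, 6 fallers and 4 genes not past the test among 14 (median -0.07). The shares were 28.6% higher and 42.9% lower, where all genes gave 28.0% and 37.7%. The ratio of summed TPM, mutant over control, was 1.04 for this list and 1.06 for the sorting and activation list. The TFEB relative tfec fell from 11.9 and 11.0 to 3.87 and 4.83 TPM (-1.22, SE 0.127), while the copies tfe3 (0.04) and tfe3b (0.00) did not pass. The folliculin gene flcn, whose product acts on the Rag proteins, rose by 0.62 (SE 0.073). Its partner genes parted, with fnip1 rising by 0.76 (SE 0.103) and fnip2 falling from 10.19 and 10.66 to 3.00 and 3.62 TPM (-1.41, SE 0.118). One of the fallers, mitf (ENSDARG00000003732; 0.73 and 0.96 TPM in mutants, 1.55 and 2.38 TPM in controls), was tested only because of its control values. With either control left out 3 of the list rose and 3 fell.

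**Figure D4:**
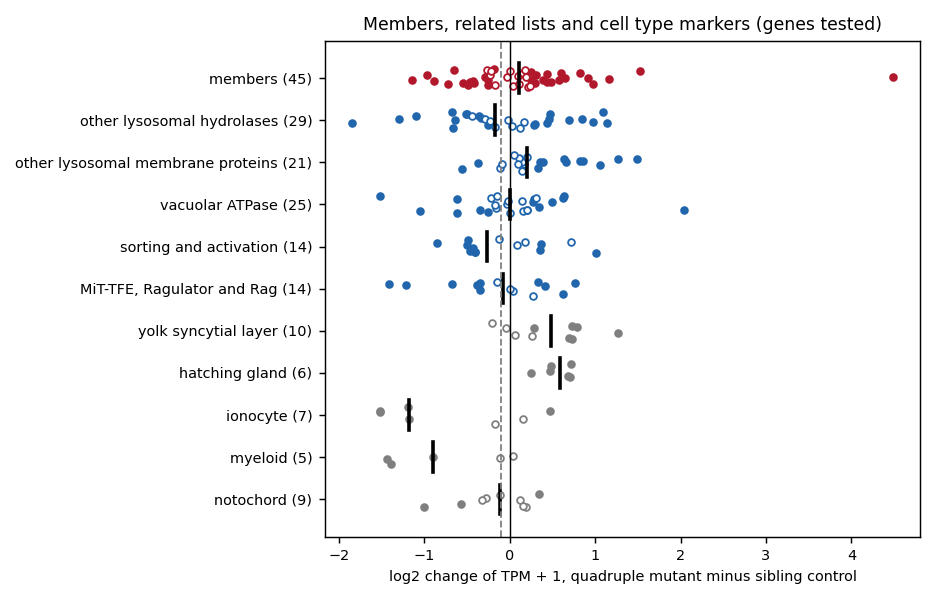
Log2 change of TPM + 1 (quadruple mutant minus sibling control) of the lysosomal members (red), related lists (blue) and cell type markers (grey), with the number of genes tested in brackets. Filled points passed the test, black bars are list medians and the dashed line is the median of all genes; the members' median is 0.11, that of other lysosomal membrane proteins 0.20 and that of sorting and activation genes -0.26.

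Markers of cell types that could carry lysosomal transcripts moved as well, and in bulk RNA a change in the number of cells cannot be told apart from a change in RNA per cell. Of 10 markers of the yolk syncytial layer 6 rose and 0 fell by limma (1 fell at an unadjusted p under 0.05), and their sums were 31970 and 31960 TPM in the mutants and 23780 and 23750 TPM in the controls. The share that rose was 60.0%, where 28.0% of all genes rose and 37.7% fell. The apolipoprotein genes apoeb and apoa1a each rose by 0.72, and apobb.1 rose by 0.79. Those that did not pass were apoc1 (0.26), hnf4a (0.06), apoa2 (-0.04) and mttp (-0.20), and the median log2 change of the list was 0.49. The transcription factor gene mxtx2, with 1.66 and 1.72 TPM in mutants and 0.16 and 0.07 TPM in controls, was tested only because the mutants were above 1 TPM; its log2 change of 1.27 ran from 0.39 to 3.09 with the pseudocount. All 6 hatching gland markers tested rose (28.0% over all genes), with sums of 3935 and 4046 TPM against 2483 and 2543 TPM. They included the hatching enzyme genes he1.1 (0.72) and he1.2 (0.71) and the transcription factor gene klf17 (0.68), and cd63, which is also a member. Another, ctslb (0.47), is also counted among the risers of the other lysosomal hydrolases. Without cd63 the sums were 3779 and 3876 TPM in the mutants and 2367 and 2426 TPM in the controls. The median log2 change of the list was 0.58, and the part of either tissue in the lysosomal changes was not tested.

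Myeloid markers were low in both genotypes, and those tested fell or did not pass. Of 11 matched identifiers 5 were tested, of which 3 fell, 0 rose by limma (0 also at an unadjusted p under 0.05) and 2 did not pass. The share that fell was 60.0%, where 37.7% of all genes fell and 28.0% rose. Sums of the 11 were 18.9 and 17.7 TPM in the mutants and 27.3 and 26.0 TPM in the controls. The defining macrophage genes csf1ra and marco were at or below 0.14 TPM in every library, marco at 0 throughout, and spi1, the master regulator of myeloid cells, fell from 7.86 and 6.54 to 2.73 and 1.46 TPM (-1.43, SE 0.217). The NADPH oxidase gene cybb (-0.90; 0.24 and 0.31 TPM in mutants, 1.53 and 1.24 TPM in controls) and the actin regulator gene coro1a (-1.39; 0.14 and 0.19 TPM in mutants, 2.26 and 1.87 TPM in controls) fell too. Both were tested only because the controls were above 1 TPM, and with either control left out they could not be tested and 1 of the markers was called lower. The actin-bundling gene lcp1, with 8.62 and 7.51 TPM in mutants and 7.92 and 7.74 TPM in controls, and the NADPH oxidase subunit gene cyba (-0.12) did not pass, and their values overlapped between genotypes. The lysozyme gene lyz, with 0.86 and 0.82 TPM in mutants and 0.37 and 0.33 TPM in controls, was too low to be tested. So was laptm5, with 0.28 and 0.16 TPM in mutants and 0.14 and 0.06 TPM in controls. Also too low, but lower in mutants, were spi1a (0.09 and 0.02 TPM, controls 0.45 and 0.28 TPM) and csf1ra (0.00 and 0.02 TPM, controls 0.14 and 0.14 TPM). Values of ptprc, likewise untested, overlapped.

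Ionocytes use the vacuolar ATPase to pump acid across the skin. Of 7 of their markers tested 4 fell (57.1%, with 37.7% over all genes), 1 rose (14.3%, with 28.0% over all genes) and 2 did not pass. The sums were 89.1 and 103 TPM in the mutants and 157 and 162 TPM in the controls. The counts and sums include both atp6v1a copies, which were matched from the same listed name and which the vacuolar ATPase list also holds. Of these, ENSDARG00000076318 was among the fallers and ENSDARG00000034534 did not pass. Without both copies the sums were 24.5 and 24.2 TPM in the mutants and 42.3 and 42.9 TPM in the controls. The forkhead factor genes foxi3a and foxi3b fell by 1.18 and 1.19. The carbonic anhydrase gene ca15a, with 0.44 and 0.38 TPM in mutants and 3.28 and 2.82 TPM in controls, was tested only because the controls were above 1 TPM; its log2 change of -1.52 ran from -2.63 to -0.57 with the pseudocount. The riser, trpv6 (0.47), was tested only because of its mutant values and was not called with any of the 4 libraries left out. Of 9 notochord markers 1 rose (11.1%, with 28.0% over all genes), 2 fell (22.2%, with 37.7% over all genes) and 6 did not pass. Their sums were 446 and 452 TPM in the mutants and 423 and 422 TPM in the controls. The collagen gene col9a1 fell by 1.00 and the caveolin gene cav1 by 0.58, and ntd5 rose by 0.34. With 0.48 and 0.51 TPM in mutants and 1.86 and 2.14 TPM in controls, col9a1 was tested only because of the controls and could not be tested with either left out; the count of fallers was 1 with either control left out and that of risers 2 without quadruple mutant replicate 1. How far any of these cell types accounts for a lysosomal change was not tested.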

How the data were processed

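The authors deposited TPM values for 32057 Ensembl gene identifiers in 4 libraries. Per the labels' protocols, poly-A libraries were read as pairs of 150 bp. Per the submitters' processing notes, the build was GRCz11 and the tools were RSEM 1.3.3, STAR 2.7.3a, DESeq2 1.42.1 and HTSeq 0.12.3 with R 4.3.3. Their roles, the annotation and the strand setting are not given in the sources used here. Depth cannot be read from TPM, so no count model, interval or detection floor was used.

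A gene name table paired 28988 identifiers with a symbol. Symbols were matched regardless of case, and for names with a copy letter also without it. The 16172 genes that reached 1 TPM in 2 or more libraries were fitted as log2(TPM + 1) with limma 3.58.1 in R 4.3.3 (variance trend), mutant minus control, with Benjamini-Hochberg adjustment over all of them and a threshold of 0.05. Log2 changes understate the change of low genes. With 2 libraries a side the smallest exact permutation p is 0.333, so calls rest on the spread limma shares between genes. In 5 simulations with 200 changed genes each, the fit recovered 66% of 2-fold and 92.4% of 4-fold changes, and 3.9% of its calls were false. Far more genes were called in the real data (10613 of 16172), so these rates may not hold there. Every member is given. Of each other list, up to 4 genes with the lowest p were eligible for naming by rule. Genes beyond these were named with their values known, and not all of them are marked so in the text. The members and lists were chosen with earlier results of these data known. Alternatives covered scaling, pseudocount (0.1 and 5 TPM), filter (none and 5 TPM), variance trend, a replicate block and each library left out, where the remaining library takes its spread from the other genotype. Tables and figures were made in Python 3.11.15 with pandas 2.3.3, numpy 2.4.6 and matplotlib 3.10.9. Promoter, protein and genome sequences were not used here.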

Additional observations from a re-analysis of the deposited data

How the results depend on the processing

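All 17 lysosomal genes that rose stayed past the test under both scalings, both pseudocounts, both filters and the replicate block; without a variance trend ctsb and tpp1 were lost. Between 10 and 14 of the 14 that fell stayed past the test under these settings. Under median ratio scaling 5 members were called at least 2-fold higher (ctsla and acp2 were added), the members' median was 0.24, and 1 other lysosomal membrane gene was called lower, 5 sorting genes higher, 2 ionocyte markers higher and 4 notochord markers higher. Under quantile normalization the members' median was 0.16, with 1 membrane gene lower and 2 notochord markers higher. Members at least 2-fold lower numbered 2 with a pseudocount of 0.1 TPM and 0 with 5 TPM, where 16.2% and 4.67% of all genes were. With no filter 1 myeloid marker was higher and 5 lower; with 5 TPM 1 myeloid marker was lower, 0 ionocyte markers higher and 1 notochord marker lower.

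Signs near 0 turned. arsb was 0.122 under median ratio scaling, 0.082 under quantile normalization and 0.001 with a pseudocount of 5 TPM, idua 0.091 and 0.068 under these scalings, and cyba 0.004 under median ratio scaling; none of these passed. With each library left out in turn arsb lay between -0.187 and 0.184, idua between -0.070 and 0.014, cyba between -0.240 and 0.003 and tfeb between -0.140 and 0.212.

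Leaving out each library gave 8 to 13 members lower and 1 to 2 at least 2-fold lower, and a members' median of 0.081 to 0.175. Vacuolar ATPase genes were 4 to 8 higher and 1 to 9 lower, other hydrolases 6 to 11 higher and 7 to 13 lower, other membrane genes 0 to 2 lower, sorting genes 1 to 3 higher and 1 to 7 lower, and the TFEB, Ragulator and Rag list 3 to 6 lower. Myeloid markers were 1 to 3 lower, yolk syncytial layer markers 0 to 1 lower, ionocyte markers 0 higher, and notochord markers 1 to 2 higher and 1 to 2 lower. The cause was not tested.

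Deviations of same-numbered libraries correlated at 0.0488 across genes. With only 2 pairs this cannot show whether the samples were paired by clutch or batch. With the replicate block 17 members were higher and 12 lower. With 2 libraries per genotype and unknown depth, small changes of low genes were not resolved.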
